A study of Mus musculus with 66 samples.

Results

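The genes described here encode the nuclear subunits of the mitochondrial respiratory chain, as measured in developing mouse lung with and without the transcription factor Nrf2. They were chosen by name: every gene whose only platform symbol begins with Ndufa, Ndufb, Ndufc, Ndufs or Ndufv followed by a number, Sdha to Sdhd, every symbol that begins with Uqcr, and Cox4 to Cox8 with a suffix, with the Ndufaf assembly factors left out. The rule found 63 genes of 18193 with a single symbol on the array, each read through its brightest probe set by mean over the 66 arrays. The groups were Nrf2-/- (KO) and Nrf2+/+ (WT) lungs at 4 ages before birth (E13.5 and E15.5, then E17.5 and E18.5, in days of embryonic development) and 7 from birth on (PND0, daily to PND4, then PND14 and lastly PND42, in postnatal days), with 3 samples in each of the 22 groups. All animals came from timed matings, pregnant dams and postnatal mice had free access to AIN-76A feed, and lungs were snap frozen. RNA came from a homogenate of each lung, except at E13.5, where 2 to 3 lungs were pooled into a sample. Cell types were not separated, so a lower level from fewer cells of a type cannot be told apart from less RNA per cell.

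The respiratory chain passes electrons from NADH and succinate to oxygen and pumps protons across the inner mitochondrial membrane. Complex I (NADH dehydrogenase) and complex II (succinate dehydrogenase) feed electrons into ubiquinone, complex III (the cytochrome bc1 complex) passes them to cytochrome c, and complex IV (cytochrome c oxidase) reduces oxygen. Complexes I, III and IV combine subunits encoded in the mitochondrial genome with the nuclear subunits treated here, and several complex IV subunits exist in tissue isoforms, of which Cox4i2 is known for its expression in lung. Nrf2 is known as the activator of antioxidant and detoxification genes, and its loss has been linked to altered mitochondrial function in other tissues.

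Of the 63 subunits, 34 belong by name to complex I (6 catalytic core subunits and 28 accessory subunits), 4 to complex II, 8 to complex III and 17 to complex IV (10 expressed in most tissues and 7 tissue isoforms). Ndufa4 carries a complex I name but is now assigned to complex IV, and it is counted here with its name. Other nuclear subunits of these complexes were not analysed here. Levels are given as log2(signal + 16) after quantile normalization throughout, so a difference understates the change of dim genes.

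Nfe2l2, the targeted gene, lay between 4.41 and 8.26 in the KO libraries and between 10.49 and 12.25 in the WT libraries, with no overlap. Its KO minus WT difference was smallest at E13.5 (-3.82, group means of 6.82 in KO and 10.64 in WT lungs) and largest at E17.5 (-6.91). The 24 arrays of PND1 to PND4 carried lower overall signal (2% trimmed means of 171.7 to 307.1) than the other 42 (trimmed mean of 500 on each), so levels at PND1 to PND4 are compared with other ages only within limits, whereas KO and WT at any 1 age share the same array set. The KO libraries labelled E17.5 and E18.5 went against the order of their labels: the mean level of 8 type 2 cell markers was 12.99, 13.13 and 13.13 in KO libraries labelled E17.5 and 11.91, 12.58 and 12.58 in those labelled E18.5, against 12.53, 12.51 and 12.70 in WT libraries at E17.5 and 13.18, 13.14 and 12.82 in WT libraries at E18.5. Heart muscle RNA was present in varying amounts: the mean of 12 heart muscle markers (among them Myh6, Nppa and Tnnt2) ranged from 8.28 to 12.24 over the 33 KO libraries and from 7.94 to 12.53 over the 33 WT libraries. It exceeded 12 in 5 libraries, namely replicate 1 of KO E13.5 and of KO E18.5, replicate 1 of WT PND1 and of WT PND2, and replicate 3 of WT PND4. At PND14, replicate 2 of WT stood apart, with a mean of 8 cell cycle markers of 11.76 against 9.06 and 9.58.

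Most subunits were read by bright probe sets. In mean level 51 lay above 90% of the 18193 genes, and 53 had a mean level of at least 10. Median levels were 11.58 for the complex I core, 11.94 for the accessory subunits, 11.53 for complex II, 11.82 for complex III and 13.34 for the general complex IV subunits, and 8.52 for the tissue isoforms of complex IV. These are signals of different probe sets and do not rank the genes by transcript number. Ndufc2, a small membrane arm subunit, was the steadiest, with an SD within groups of 0.05 and a range of 0.42 over all 66 libraries. At the other end stood Cox7a1, Cox6a2 and Cox8b, the heart and skeletal muscle isoforms, with within-group SDs of 0.89, 0.92 and 1.14. The dimmest readings included Cox7b2 (mean 4.96), a testis isoform, Ndufb4 (5.23), Ndufb1 (7.16) and Cox7c (7.58).

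Many respiratory chain genes carry promoter elements for nuclear respiratory factor 1 and for the ETS factor Gabpa, and the promoters of 5 subunits that hold a match and were called in a comparison below are shown. They are stretches upstream of the RefSeq start on GRCm38.p6, printed 5′ to 3′ on the strand of the gene. Capitals mark GCATGCGC, the core of the nuclear respiratory factor 1 element, or CCGGAAG, the ETS core, each searched on both strands (GCGCATGC and CTTCCGG on the other strand, with the palindromic centre of the first making overlapping matches possible). Cox6a1 (a general complex IV subunit, minus strand, chr5:115348959-115349150) holds both, with the first matched on both strands in overlap. Ndufa6 (minus strand, chr15:82354337-82354404) holds the first. Cox6b1 (minus strand, chr7:30626115-30626172), Ndufb7 (plus strand, chr8:83566708-83566757) and Sdhd (minus strand, chr9:50603859-50603925) hold the second.
Cox6a1: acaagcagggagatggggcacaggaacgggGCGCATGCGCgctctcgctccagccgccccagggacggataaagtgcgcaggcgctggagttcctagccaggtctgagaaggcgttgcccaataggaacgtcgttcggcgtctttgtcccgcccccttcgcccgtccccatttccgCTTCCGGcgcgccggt
Ndufa6: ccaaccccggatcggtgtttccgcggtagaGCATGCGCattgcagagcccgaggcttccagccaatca
Cox6b1: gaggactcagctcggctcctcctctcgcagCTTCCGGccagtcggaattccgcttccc
Ndufb7: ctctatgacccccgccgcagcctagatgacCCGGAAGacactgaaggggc
Sdhd: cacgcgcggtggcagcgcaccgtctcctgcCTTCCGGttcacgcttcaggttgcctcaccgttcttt

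Promoter windows were given for 51 of the 63 subunits (53 windows of 250 bases before the start). The first motif was in 4 of these 53 windows (7.55%), against 2.26% of all 32851 windows and 4.65% of the windows of measured genes brighter than 90% of all. The ETS core was in 8 windows (15.1%), against 6.91% of all windows and 13.5% of those of the bright genes. In 40 subunits the window had neither string, among them Ndufa5, Ndufc1, Ndufs7 and Ndufa1. A match is a description of letters, not a site or a cause, and no match says only that these letters are not in the window.

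Averaged over the 11 ages, 9 of the 63 subunits differed between KO and WT lungs in limma's moderated test, with Benjamini-Hochberg adjustment over all probe sets and a threshold of 0.05. One was higher (6.78% of all genes were) and 8 were lower (4.5% of all genes were). The 8 lower ones were small in size: Ndufc1 by 0.19 ± 0.05 (SE here and below; adjusted p = 0.00594), Ndufa5 and Ndufa9 by 0.15 each, Ndufs7 by 0.12, Ndufa1 by 0.11, Ndufa2 by 0.10, and Cox6a1 and Ndufa3 by 0.08 each. Over the 7 ages other than PND1 to PND4 the difference turned positive for Ndufa2 (0.0262), Ndufa5 (0.0345) and Ndufs7 (0.0083). All of the 8 but Cox6a1 are complex I subunits, and Ndufs7, which holds an iron-sulfur cluster close to the ubiquinone site, is a core subunit. Cox7c, a small complex IV subunit that reads dim here, was higher by 0.21 ± 0.07 (adjusted p = 0.0489). The median over the 63 was -0.06, against 0.01 over all genes, and 48 of 63 differences were negative. This count turned on the scaling: it was 0 higher and 18 lower with the signals as deposited, and 1 higher and 1 lower with array medians subtracted. The members nearest the middle of their complex were Ndufb6 (-0.06 ± 0.04, adjusted p = 0.317), Sdha (0.00 ± 0.05, adjusted p = 0.985), Uqcr10 (-0.04 ± 0.04, adjusted p = 0.605) and Cox4i2 (-0.07 ± 0.08, adjusted p = 0.696), none of which passed the test.

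**Figure D1:**
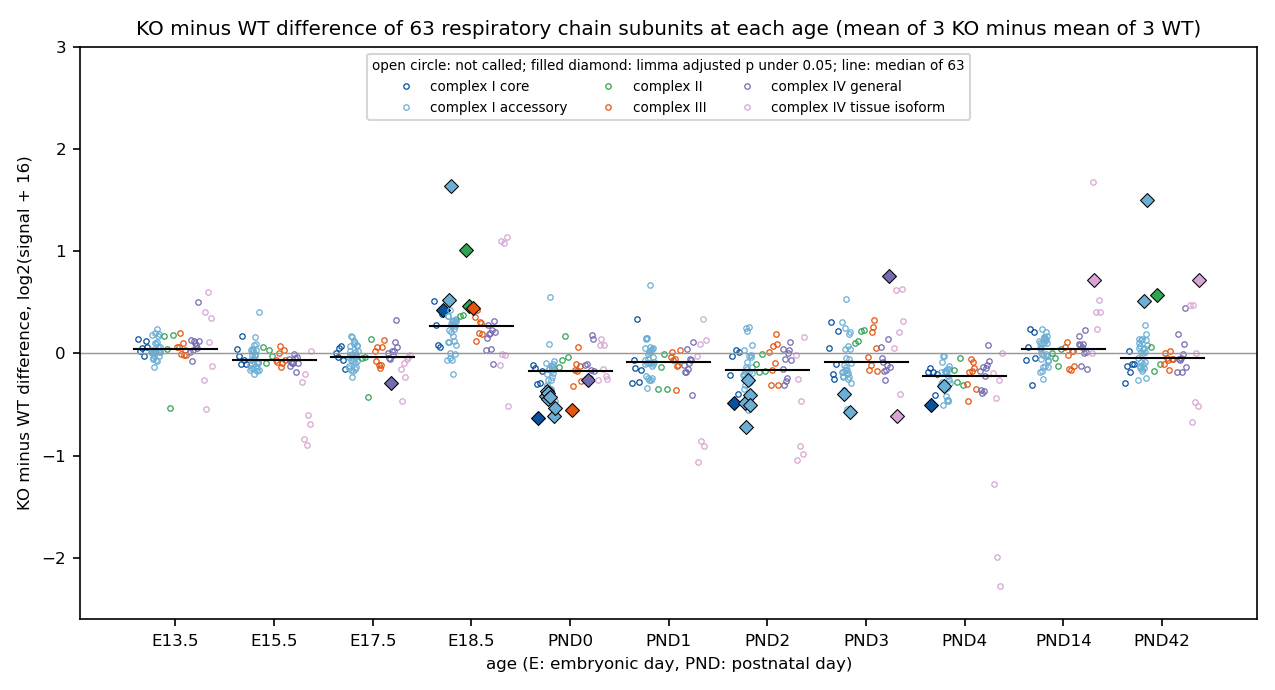
KO minus WT difference in log2(signal + 16) of each of the 63 subunits at each age, coloured by complex and role. Filled diamonds passed limma's test at an adjusted p under 0.05 and the black line is the median of 63, which was 0.27 at E18.5, -0.17 at PND0 and -0.22 at PND4.

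The 4 newborn ages, PND1 to PND4, were then averaged on their own. Averaged over PND1 to PND4 (12 libraries a genotype), 19 subunits were lower, against 8.37% of all genes, and 1 was higher, against 7.84%. This total of 20 was 41 with the signals as deposited and 12 with array medians subtracted. Averaged over the other 7 ages, 1 was lower (2.94% of all genes) and 0 were higher (3.56%) by limma, with 7 at an unadjusted p under 0.05. The 1 was Cox6a1. The difference between the newborn and the other ages was itself negative at an adjusted p under 0.05 for 14 subunits (7.1% of all genes) and positive for 0 (5.49%). That count was 28 with the signals as deposited, 7 with second probe sets, 5 with the heart muscle marker list as a covariate and 5 without the 5 libraries over 12 in that list. This split of the ages was chosen after the values had been seen. Of the 19, 13 belong to complex I (2 core, 11 accessory), 1 to complex III, 4 to the general complex IV subunits and 1 to the tissue isoforms, and none to complex II. At all 4 ages 15 of them were lower, a count taken from the same values that chose the 19.

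Ndufa5, an accessory subunit of the matrix arm, showed the largest fall of the 19. Its level was 9.99 at the lowest, 10.73 at the median and 11.11 at the highest in the 12 KO libraries, against 10.67, 11.14 and 11.69 in the 12 WT libraries. The genotypes overlapped in range while the KO mean was lower at each of the 4 ages, by 0.48 ± 0.08 on average (adjusted p = 3.78e-05). At PND4 alone the KO libraries stood at 10.83, 10.76 and 10.82, all under the WT libraries at 11.11, 11.21 and 11.62. These libraries are part of the average that chose the gene, and Ndufa5 was not called at PND4. Ndufc1, a short membrane subunit, had a lowest, median and highest level of 11.28, 11.81 and 11.92 in KO libraries, against 11.60, 12.12 and 12.58 in WT libraries. It fell by 0.41 ± 0.08 in KO lungs (adjusted p = 0.000267).

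Ndufs7 lay at 10.81, 11.01 and 11.41 (lowest, median, highest) in KO libraries and at 11.16, 11.38 and 11.82 in WT libraries, a difference of -0.33 ± 0.06 (adjusted p = 6e-05). Ndufv1, the core subunit that binds flavin and takes electrons from NADH, differed by -0.30 ± 0.08 (adjusted p = 0.00485). Ndufa2, whose fold resembles thioredoxin, spanned 11.66 to 12.06 in KO libraries and 11.82 to 12.42 in WT libraries and fell by 0.31 ± 0.05 (adjusted p = 6.74e-06). Ndufb7 and Ndufb8, both of the membrane arm, fell by 0.30 ± 0.07 and 0.31 ± 0.07. The other complex I subunits of the 19 were Ndufa1, Ndufa12, Ndufa4, Ndufa7, Ndufb11 and Ndufb6, at -0.14 to -0.24. In complex III, Uqcrb, a small subunit next to the ubiquinone site, fell by 0.13 ± 0.04. In complex IV, Cox6b1 fell by 0.26 ± 0.05, Cox5b by 0.24 ± 0.06, and Cox5a and Cox6c by 0.18 each. Ndufa6, an accessory subunit with an NRF1 core in the promoter shown above, went the other way, higher by 0.16 ± 0.05 (adjusted p = 0.0471), but stood at -0.01 with the signals as deposited.

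**Figure D2:**
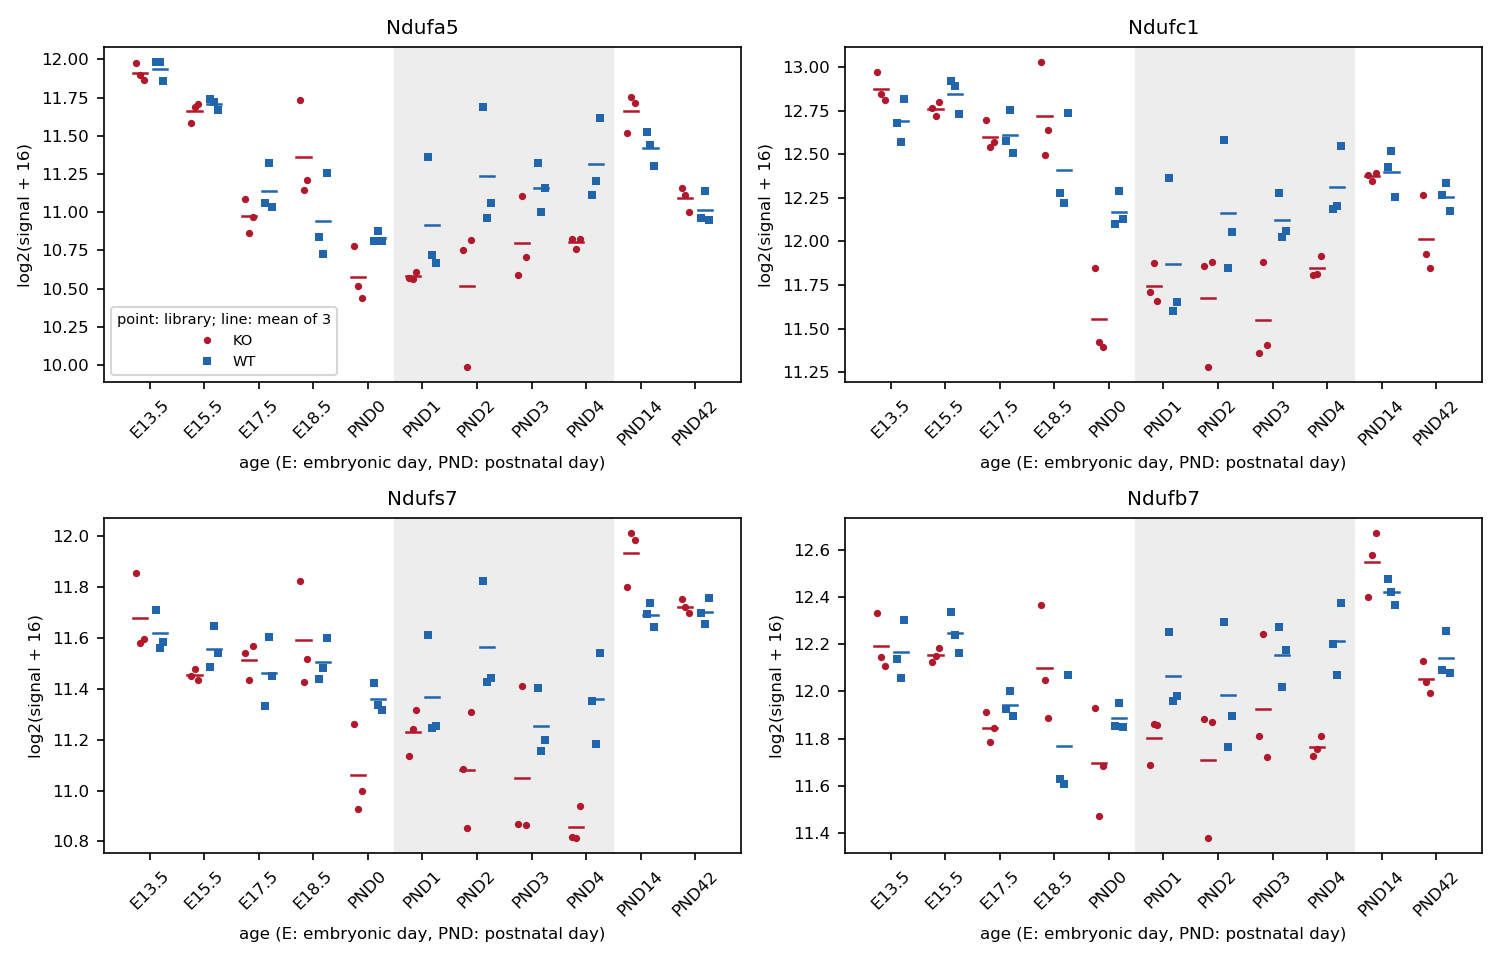
Levels of Ndufa5, Ndufc1, Ndufs7 and Ndufb7 in each library, log2(signal + 16), with KO (circles) left of WT (squares) at each age, a line at the mean of 3 and the array set of PND1 to PND4 shaded. At PND4 the 3 KO libraries lie under the 3 WT libraries for each of the 4 genes. The 4 were taken from the subunits lower over PND1 to PND4, an average that holds these libraries. Only Ndufs7 of them was called at PND4.

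Marker lists of other tissues and of lung cell types were compared over the same libraries. Over PND1 to PND4 the mean of the 12 heart muscle markers ran from 8.28 to 11.25 (median 9.34) in KO libraries and from 9.40 to 12.53 (median 9.88) in WT libraries, and their summed signal from 10300 to 74900 in KO libraries and from 21800 to 140000 in WT libraries. The mean of the 5 measured liver markers ran from 5.21 to 12.12 (median 5.85) in KO libraries and from 5.17 to 14.57 (median 9.96) in WT libraries, with sums of 111 to 29400 in KO libraries and 119 to 122000 in WT libraries. The mean of the 10 skeletal muscle markers ran from 6.02 to 12.83 (median 6.51) in KO libraries and from 5.91 to 9.36 (median 6.60) in WT libraries. Their sums ran from 797 to 126000 in KO libraries and from 956 to 12100 in WT libraries, so here the highest sum was in KO. The mean of the 8 macrophage markers ran from 8.62 to 9.22 (median 8.94) in KO libraries and from 8.91 to 10.05 (median 9.61) in WT libraries, with sums of 20300 to 30000 in KO libraries and 21400 to 29200 in WT libraries. Medians of the mean were 6.46 in KO and 6.98 in WT libraries for 7 brown fat markers and 7.48 in KO and 7.90 in WT libraries for 6 erythroid markers. They were 9.93 in KO and 10.59 in WT libraries for 8 cell cycle markers. For 7 endothelial markers they were 11.72 in KO and 11.43 in WT libraries. They were 13.17 in KO and 13.05 in WT libraries for 8 type 2 cell markers. For 8 ciliated cell markers they were 8.01 in KO and 8.25 in WT libraries. For 8 pericyte and vascular smooth muscle markers they were 10.59 in KO and 10.61 in WT libraries. Of these lists, only the endothelial and type 2 cell ones had a higher median in KO libraries. No marker was listed at 0. Apart from the heart and liver lists, the part of these lists in the subunit values was not tested. Without the 5 libraries over 12 in the heart list, 9 of the 19 subunits were still lower at an adjusted p under 0.05: Ndufa2, Ndufa5, Ndufa7, Ndufb6, Ndufb7, Ndufb8, Ndufc1, Ndufs7 and Cox6b1. With the heart list as a covariate 9 were still called (Cox6b2 in place of Ndufa7), and with the liver list as a covariate 18 were, and all 19 stayed negative in each of these fits. Whether heart muscle RNA set the other 10 was not tested.

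The mean over the 56 subunits other than the tissue isoforms followed the same libraries. In KO lungs of PND1 to PND4 it was 11.42 at the lowest, 11.62 at the median and 11.89 at the highest, against 11.56, 11.75 and 12.08 in WT lungs. The 3 WT libraries over 12 in the heart list were also the 3 highest WT libraries of these ages in this mean, at 11.96 (PND1), 12.08 (PND2) and 11.98 (PND4). At PND4, where 61 of the 63 differences were negative with a median of -0.22, the KO libraries stood at 11.61, 11.58 and 11.63 and the WT libraries at 11.79, 11.76 and 11.98. The groups did not overlap there, also without the WT library at 11.98.

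**Figure D3:**
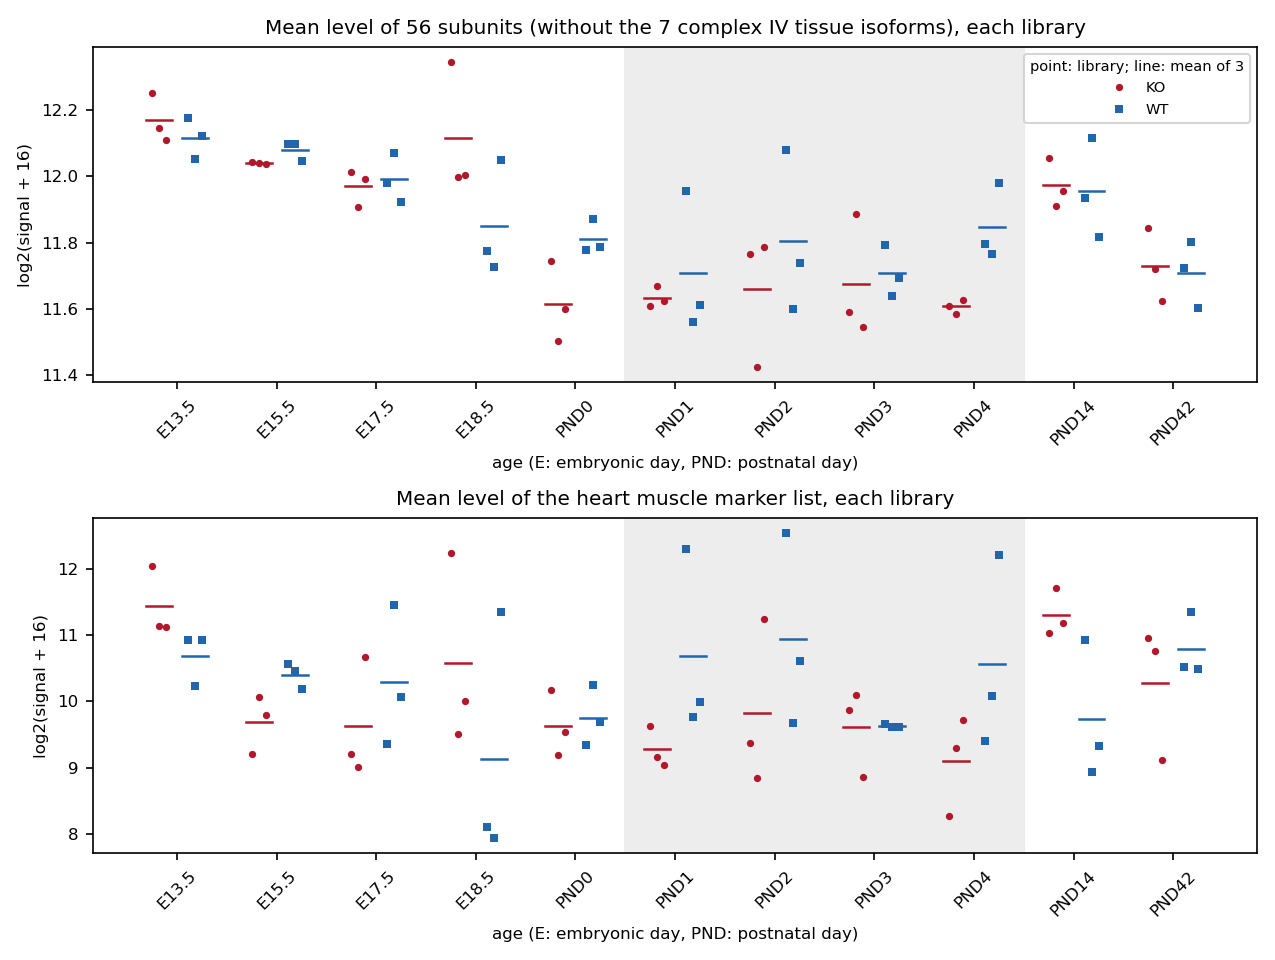
Mean level of the 56 subunits other than complex IV tissue isoforms (top) and of the 12 heart muscle markers (bottom) in each library, log2(signal + 16), KO left of WT at each age and PND1 to PND4 shaded. Replicate 1 of KO E18.5 and replicate 1 of WT PND2 are the highest of their groups in both panels.

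Single ages were compared next, with 3 KO and 3 WT libraries each. At E13.5, 0 subunits were called higher (0.715% of all genes) and 0 lower (1.24%), at E15.5 again 0 higher (0.077%) and 0 lower (0.066%), and at PND1 0 higher (1.79%) and 0 lower (0.759%), by limma. At an unadjusted p under 0.05 there were 4, 0 and 6 subunits at these ages. Without replicate 3 of WT E13.5, 2 were called, and without replicate 2 of WT E13.5, 1 was. At E17.5, 0 were higher (1.32%) and 1 was lower (0.324%). That one was Cox6a1, with 13.72, 13.56 and 13.59 in KO libraries and 13.92, 13.94 and 13.89 in WT libraries, a difference of -0.29 ± 0.07 (adjusted p = 0.0266). The libraries did not overlap, but the KO libraries are those whose markers went against the label, and no subunit was called without any 1 of the 3 WT libraries or without replicate 2 or 3 of KO. With the signals as deposited or array medians subtracted 0 were called at E17.5.

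At E18.5, KO lungs were higher for 6 subunits (7.1% of all genes were higher) and lower for 0 (5.3%), and 53 of the 63 differences were positive. In all, 9.52% of the subunits were called there, against 12.4% of all genes. The count was 2 with the signals as deposited, 4 with array medians subtracted, 3 without the intensity trend, 2 with only these groups in the fit, 10 without dim probe sets and 16 with array weights. Ndufv2, a core iron-sulfur subunit, was at 12.89, 12.53 and 12.51 in KO libraries and 12.13, 12.00 and 12.52 in WT libraries (0.42 ± 0.14, adjusted p = 0.0431), and the third WT library overlapped the KO range. Ndufb1, an accessory subunit of the membrane arm, was at 7.81, 7.10 and 7.39 in KO libraries and 5.14, 6.07 and 6.17 in WT libraries, without overlap (1.64 ± 0.26, adjusted p = 1.91e-05). Ndufa4 was at 13.32, 13.02 and 13.04 in KO libraries and 12.48, 12.45 and 12.89 in WT libraries (0.52 ± 0.13, adjusted p = 0.00675).

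Both membrane anchors of complex II were among the 6. Sdhc was at 12.43, 11.79 and 11.99 in KO libraries and 11.14, 10.89 and 11.15 in WT libraries, with no overlap (1.01 ± 0.15, adjusted p = 8.21e-06). Its second, dimmer probe set did not show this (-0.35, adjusted p = 0.325), so the call belongs to 1 of 2 probe sets. Sdhd was at 11.81, 11.22 and 11.24 in KO libraries and 10.83, 10.74 and 11.30 in WT libraries (0.47 ± 0.15, adjusted p = 0.0346). Uqcr10, a small complex III subunit, was at 12.33, 11.84 and 11.80 in KO libraries and 11.27, 11.43 and 11.93 in WT libraries (0.45 ± 0.15, adjusted p = 0.0451). Sdhd and Uqcr10 overlapped between genotypes through replicate 3 of WT. Of the 6, 4 had a second probe set, and 0 of these were called in both probe sets with the same sign. Over all 38 subunits with a second probe set, the sign at E18.5 was the same in 33.

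Several measures differed between the same libraries. The cell cycle markers averaged 11.47, 11.07 and 11.10 in KO libraries labelled E18.5 and 9.70, 9.70 and 10.68 in WT libraries, and the heart markers 9.51 to 12.24 in KO libraries against 7.94 to 11.35 in WT libraries. Without replicate 3 of WT, the WT library highest in heart markers, 15 subunits were higher in KO lungs, and without replicate 1 or 2 of WT or replicate 1 of KO, 2 were. In KO libraries labelled E17.5, Sdhc stood at 11.38, 11.05 and 11.17, against 11.50, 11.74 and 11.63 in WT libraries at E17.5, so its order between genotypes was the opposite under that label. Whether the labels account for the E18.5 difference was not tested.

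At birth (PND0) the difference ran the other way: 10 subunits were lower in KO lungs (8.62% of all genes were) and 0 higher (5.85%). In all, 15.9% of the subunits were called there, against 14.5% of all genes. The KO and WT libraries did not overlap in any of the 10, but the 10 were chosen by a test on these same libraries. Overlap was not counted over all called genes, so this is no trait of the subunits. Ndufs8, a core subunit with iron-sulfur clusters, was at 11.65, 11.39 and 11.44 in KO libraries and 12.23, 12.10 and 12.04 in WT libraries (-0.63 ± 0.15, adjusted p = 0.00329). Probe sets 2 to 4 of the gene by brightness were called too (-0.51 to -0.53), and the dimmest was at 0.25 (adjusted p = 0.712). Ndufc1 was at 11.85, 11.42 and 11.39 in KO libraries and 12.10, 12.29 and 12.13 in WT libraries (-0.62 ± 0.16, adjusted p = 0.00777), and its second probe set fell too (-0.48, adjusted p = 0.0369). Ndufv3, a small subunit of the NADH-binding module, was at 11.34, 11.37 and 11.20 in KO libraries and 11.66, 12.09 and 11.76 in WT libraries (-0.54 ± 0.13, adjusted p = 0.00274).

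Further accessory subunits of complex I fell by less. Ndufa1, encoded on the X chromosome, was at 12.86, 12.65 and 12.65 in KO libraries and 13.08, 13.24 and 13.08 in WT libraries (-0.42 ± 0.10, adjusted p = 0.00202). Ndufa9 (-0.42), Ndufa3 (-0.39), Ndufa13 (-0.37), also known as GRIM-19, and Ndufa4 (-0.45) completed the list. In complex III, Uqcr10 was at 11.40, 10.81 and 11.10 in KO libraries and 11.55, 11.73 and 11.69 in WT libraries (-0.56 ± 0.15, adjusted p = 0.00723). In complex IV, Cox6a1 fell by 0.26 ± 0.07 (adjusted p = 0.0135). Ndufa4 and Uqcr10 were thus higher in KO lungs at E18.5 and lower at PND0. The heart markers averaged 10.17, 9.19 and 9.54 in KO libraries and 9.34, 10.25 and 9.69 in WT libraries at PND0, so they overlapped, and with the heart list as a covariate 16 subunits were lower. The count was 5 without replicate 2 of WT or replicate 3 of KO, 6 without replicate 2 of KO, 3 with array medians subtracted and 4 with the signals as deposited.

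At PND2, 6 subunits of complex I were lower in KO lungs (2.84% of all genes were) and 0 higher (3.11%). With array medians subtracted, or with only these 2 groups in the fit, 0 were called, and with second probe sets 1 was. Ndufa5 was at 10.75, 9.99 and 10.82 in KO libraries and 11.69, 10.96 and 11.06 in WT libraries (-0.72 ± 0.17, adjusted p = 0.00515). Ndufa2 was at 11.81, 11.66 and 11.78 in KO libraries and 12.33, 12.26 and 12.12 in WT libraries (-0.49 ± 0.10, adjusted p = 0.00125), and Ndufs7 at 11.09, 10.85 and 11.31 in KO libraries and 11.82, 11.42 and 11.44 in WT libraries (-0.48 ± 0.12, adjusted p = 0.00848). These 3 did not overlap between genotypes. Ndufb8 (-0.50), Ndufb6 (-0.41, with overlap) and Ndufb11 (-0.26) were also called, while the second probe set of Ndufb8, a dim one, was at 0.31 (adjusted p = 0.689). Without replicate 1 of WT, the library highest in heart markers at 12.53, 1 subunit was called, without replicate 2 of KO 1 was, and without replicate 1 of KO 3 were.

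At PND3, 3 subunits were lower (6.69% of all genes) and 1 was higher (4.11%). Ndufc1 was at 11.36, 11.88 and 11.41 in KO libraries and 12.28, 12.03 and 12.06 in WT libraries (-0.57 ± 0.16, adjusted p = 0.0189). Ndufa3 fell by 0.39 ± 0.10 (adjusted p = 0.00432), and Cox6b2, known as the testis isoform of Cox6b, was at 8.32, 7.84 and 8.27 in KO libraries and 8.97, 8.46 and 8.84 in WT libraries (-0.61 ± 0.19, adjusted p = 0.0333). Cox7c was at 7.21, 7.52 and 7.32 in KO libraries and 6.65, 6.31 and 6.82 in WT libraries, higher by 0.76 ± 0.23 (adjusted p = 0.0319). At PND4, 2 were lower (0.275% of all genes) and 0 higher (0.368%). Ndufs7 was at 10.82, 10.81 and 10.94 in KO libraries and 11.35, 11.18 and 11.54 in WT libraries (-0.50 ± 0.12, adjusted p = 0.0278), and Ndufa7 at 12.03, 12.01 and 11.98 in KO libraries and 12.30, 12.25 and 12.43 in WT libraries (-0.32 ± 0.08, adjusted p = 0.049). Neither overlapped between genotypes. Without replicate 3 of KO, 0 subunits were called at PND3, and without replicate 1 of WT 1 was. With signals as deposited, 0 were higher and 20 lower at PND3, where the median of all genes moved to -0.26, against -0.02 here. With array medians subtracted, 1 was called at PND3 and 0 at PND4. Without replicate 1 of WT or any 1 KO library, 0 were called at PND4, and without replicate 2 or 3 of WT 1 was.

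In older lungs few subunits were called. The median difference over the 63 was 0.05 at PND14, against 0.07 over all genes, and -0.05 at PND42, against 0.05, with 34 of the 63 differences negative at PND42. At PND14, 1 subunit was higher (5.18% of all genes) and 0 lower (4.17%): Cox6b2, at 10.60, 9.97 and 10.24 in KO libraries and 9.72, 9.19 and 9.74 in WT libraries (0.72 ± 0.19, adjusted p = 0.0115). No subunit was called at PND14 with only these groups in the fit. Cox6b2 was not called without replicate 2 of WT, the library that stood apart, or without replicate 1 of KO, and 2 subunits were called without replicate 1 of WT. At PND42, 4 were higher (3.2%) and 0 lower (1.59%). Ndufb6 was at 11.92, 11.94 and 12.02 in KO libraries and 11.51, 11.55 and 11.28 in WT libraries (0.51 ± 0.12, adjusted p = 0.00274), though its second probe set was at -0.03 (adjusted p = 0.952). Sdhc was at 11.61, 11.74 and 11.68 in KO libraries and 11.19, 11.18 and 10.94 in WT libraries (0.57 ± 0.15, adjusted p = 0.0123), and here its second probe set was close, at 0.55 (adjusted p = 0.093). Cox8c, a testis isoform, was at 7.90, 7.95 and 7.99 in KO libraries and 7.57, 7.17 and 6.95 in WT libraries (0.72 ± 0.20, adjusted p = 0.022).

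Ndufs5, an accessory subunit on the intermembrane side of complex I, had the largest difference at PND42, and 1 library set its size. It was at 11.78, 11.65 and 11.72 in KO libraries and 10.98, 11.16 and 8.49 in WT libraries (1.51 ± 0.30, adjusted p = 0.000475). Without replicate 3 of WT the difference was 0.65 (adjusted p = 0.047). It has 1 probe set, and the library at 8.49 was near its group in the mean of the 56 subunits (11.60, against 11.72 and 11.80).

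Across the 11 ages, 25 subunits were called at 1 age or more, and 9 were called at more than 1 age. There were 12 higher and 22 lower calls. The same counts were not made over all genes, so they do not set the subunits apart from other genes. At single ages the share called lay on either side of that of all genes. It was 6.35% of the subunits against 10.8% of all genes at PND3, and 3.17% against 0.643% at PND4. The test of whether the KO effect depends on age called 24 of the 63, against 35.1% of all genes. The smallest p-values were those of Sdhc (adjusted p = 5.99e-06), Ndufb6 (0.000508), Ndufb1 (0.00102), Cox6b2 (0.00106) and Ndufa2 (0.00137). Of the accessory complex I subunits 14 of 28 were called, with 3 of 6 core subunits, 2 of 4 in complex II, 1 of 8 in complex III and 4 of 17 in complex IV. Cox6b2 was called in both directions, with a KO minus WT difference of -0.61 at PND3 and 0.72 at PND14. Without E17.5 and E18.5 the test called 14 subunits, among the 7 ages outside PND1 to PND4 it called 12, and among PND1 to PND4 alone it called 0.

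Age changed most subunits in WT lungs: 54 of 63 were called, against 74% of all genes. The smallest p-values were those of Ndufa6 (1e-16), Cox4i2 (7.46e-16), Cox6b2 (3.2e-15), Ndufa4 (2.2e-14) and Ndufs8 (1.06e-10). This test spans both array sets. Between E13.5 and PND0, which lie in 1 set, 44 subunits were lower at PND0 in KO lungs (27.5% of all genes) and 4 were higher (22.9%), against 25 lower (24.5%) and 6 higher (21.8%) in WT lungs. The WT total of 31 was 18 without replicate 1 of WT PND0, and 20 without its replicate 3 or without replicate 3 of WT E13.5.

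Among the larger called declines were those of complex I subunits. Ndufa12, needed for a complete NADH-binding module, was at 11.46, 11.13 and 11.31 at PND0 and 12.63, 12.70 and 12.63 at E13.5 in KO libraries (-1.35 ± 0.13, adjusted p = 4e-13). In WT libraries it was at 11.43, 11.71 and 11.69 at PND0 and 12.55, 12.55 and 12.30 at E13.5 (-0.86 ± 0.13, adjusted p = 1.45e-07). Ndufa5 fell by 1.33 ± 0.17 in KO lungs and by 1.10 ± 0.17 in WT lungs, and Ndufb2 by 1.33 ± 0.23 in KO lungs and 0.89 ± 0.23 in WT lungs. Sdhc fell by 1.12 ± 0.15 in WT lungs (adjusted p = 1.78e-08), but its second probe set was at -0.06 (adjusted p = 0.873). A few subunits ran against this. Ndufa6 rose by 0.51 ± 0.11 in KO lungs and 0.29 ± 0.11 in WT lungs, Cox7a2l, a factor of respiratory supercomplexes, by 0.50 ± 0.10 in KO lungs and 0.37 ± 0.10 in WT lungs. Cox6b2 rose by 1.195 ± 0.19 in KO lungs (adjusted p = 4.98e-07) and by 0.51 ± 0.19 in WT lungs (adjusted p = 0.0307), the WT call being lost without replicate 3 of E13.5 or replicate 1 or 2 of PND0.

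The KO change minus the WT change over this span was called for 4 subunits (9.32% of all genes), Ndufc1 (-0.80 ± 0.23, adjusted p = 0.0231), Ndufa1 (-0.43 ± 0.14, adjusted p = 0.0445), Uqcrb (-0.36 ± 0.12, adjusted p = 0.0497) and Sdhc (0.71 ± 0.21, adjusted p = 0.0297). For Ndufc1, KO libraries stood at 11.85, 11.42 and 11.39 at PND0 and 12.97, 12.85 and 12.81 at E13.5. The WT libraries stood at 12.10, 12.29 and 12.13 at PND0 and 12.68, 12.57 and 12.82 at E13.5. The count was 0 with signals as deposited and with array medians subtracted, and Uqcrb turned to 0.23 and 0.21 in those fits. It was 1 without replicate 2 of WT E13.5, replicate 2 or 3 of WT PND0, replicate 3 of KO E13.5 or replicate 2 or 3 of KO PND0, and 2 without replicate 1 of KO E13.5.

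Between PND0 and PND14, 31 subunits were higher at PND14 in KO lungs (22% of all genes) and 4 lower (12.4%), against 13 higher (8.94%) and 2 lower (7.85%) in WT lungs. Ndufa5 regained 1.08 ± 0.17 in KO lungs (adjusted p = 8.59e-07) and 0.59 ± 0.17 in WT lungs (adjusted p = 0.0121). Ndufb10 rose by 0.99 ± 0.16 in KO lungs. The larger WT rises were those of Cox7c (0.67 ± 0.23, adjusted p = 0.047), which was lost without any 1 library other than replicate 1 of PND14, and Sdhc (0.66 ± 0.15, adjusted p = 0.00158). The second probe sets of both were below 0. In KO lungs Ndufb1 fell by 0.97 ± 0.26, Ndufa6 by 0.49 ± 0.11 and Ndufa10, an accessory subunit, by 0.42 ± 0.15. The Ndufa10 call was lost without replicate 1 or 2 of PND0 or replicate 2 or 3 of PND14, and its second probe set was at 0.94. In WT lungs Cox7a2l fell by 0.37 ± 0.10, a call lost without replicate 3 of PND14, and Ndufa7 by 0.30 ± 0.08, with its second probe set at -0.07 (adjusted p = 0.669). The WT total of 15 was 8 without replicate 1 of WT PND0. The change differed between genotypes for 2 subunits (10% of all genes). Ndufa1 was at 13.53, 13.56 and 13.53 at PND14 and 12.86, 12.65 and 12.65 at PND0 in KO libraries, and at 13.50, 13.43 and 13.32 at PND14 and 13.08, 13.24 and 13.08 at PND0 in WT libraries (difference of the changes 0.54 ± 0.14, adjusted p = 0.00842). Ndufs7 differed by 0.54 ± 0.17 (adjusted p = 0.0374). This count ran from 1 to 6 with single libraries left out, being 6 without replicate 1 of WT PND14 or of KO PND0, 2 without replicate 2 of WT PND14 or replicate 1 of KO PND14, and 1 without any other.

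Between PND14 and PND42, 15 subunits fell in KO lungs (8.2% of all genes were lower) and 0 rose (6.98%), and 11 fell (10.5%) and 0 rose (9.58%) in WT lungs. The largest called WT fall was that of Ndufs5 (-1.67 ± 0.30, adjusted p = 4.93e-05), which was -0.81 without replicate 3 of WT PND42, the library at 8.49. Cox7c fell by 0.90 ± 0.23 in WT lungs (adjusted p = 0.00484), a call lost without replicate 2 of PND14 (-0.75) or replicate 3 of PND42 (-0.46). In KO lungs Ndufa5 fell by 0.57 ± 0.17, a call lost without replicate 2 or 3 of PND14 or replicate 3 of PND42, and Ndufa2 by 0.55 ± 0.10. Ndufs8 fell by 0.61 ± 0.15 in KO lungs and 0.74 ± 0.15 in WT lungs, and Ndufa13 by 0.35 ± 0.10 in KO lungs and 0.40 ± 0.10 in WT lungs. The second probe set of Ndufs8 was called at -0.31 in KO lungs and stood at -0.09, not called, in WT lungs, and that of Ndufa5 stood at -0.21, not called, in KO lungs. The change differed between genotypes for 1 subunit, Ndufs5 (1.58 ± 0.42, adjusted p = 0.043), against 1.38% of all genes, and for 0 without replicate 3 of WT PND42, replicate 2 of WT PND14, replicate 2 or 3 of KO PND14 or any 1 KO library of PND42, and for 2 without replicate 1 of WT PND14. The KO total of 15 was 8 without replicate 1 of KO PND14 or replicate 3 of KO PND42, and the WT total of 11 was 7 without replicate 2 of WT PND14 or replicate 3 of WT PND42. Within the newborn set, from PND1 to PND4, 0 subunits were higher at PND4 (4.91% of all genes) and 4 lower (5.97%) in KO lungs, against 5 higher (7.31%) and 1 lower (6.05%) in WT lungs. The change was not called as different between genotypes for any of the 63 by limma (0.0275% of all genes), with 7 at an unadjusted p under 0.05. Ndufa6 fell in both, by 0.50 ± 0.11 in KO lungs and 0.33 ± 0.11 in WT lungs. In KO lungs Ndufs7 fell by 0.37 ± 0.12 and Cox7a2l by 0.33 ± 0.10. The KO count was 1 without replicate 2 or 3 of KO PND1 and 2 without replicate 1 or 3 of KO PND4. In WT lungs Ndufs8 rose by 0.59 ± 0.15, Ndufb6 by 0.49 ± 0.12 and Ndufa12 by 0.47 ± 0.13, and the WT count was 12 without replicate 1 of PND1, the library over 12 in heart markers, and 2 without replicate 2 or 3 of PND1 or replicate 3 of PND4.

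The complex IV isoform pairs behaved differently from one another. The general forms Cox4i1, Cox6a1, Cox6b1, Cox7a2 and Cox8a stayed within group means of 13.24 to 13.73, 13.59 to 14.07, 13.25 to 13.84, 13.43 to 13.93 and 11.40 to 12.20 over all 22 groups. Cox4i2, the lung isoform of subunit 4, was at 6.35, 5.48 and 6.24 at E13.5 in KO libraries and 6.30, 6.33 and 6.23 in WT libraries. At PND0 it was at 6.89, 6.90 and 6.42 in KO libraries and 6.92, 6.93 and 7.13 in WT libraries. The rise from E13.5 to PND0 was 0.71 ± 0.28 in KO lungs (adjusted p = 0.0361) and 0.71 ± 0.28 in WT lungs (adjusted p = 0.0429). With 1 library left out at a time, the WT call was lost in 6 of 6 fits and the KO call in 3 of 6. At PND1 it read 9.05, 8.78 and 9.01 in KO libraries and 8.79, 8.96 and 9.14 in WT libraries, and at PND14 7.44, 7.36 and 6.98 in KO libraries and 7.42, 6.52 and 7.84 in WT libraries. That step up and down coincides with the change of array set, and age and array set cannot be told apart. Cox4i2 was not called between genotypes at any age.

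**Figure D4:**
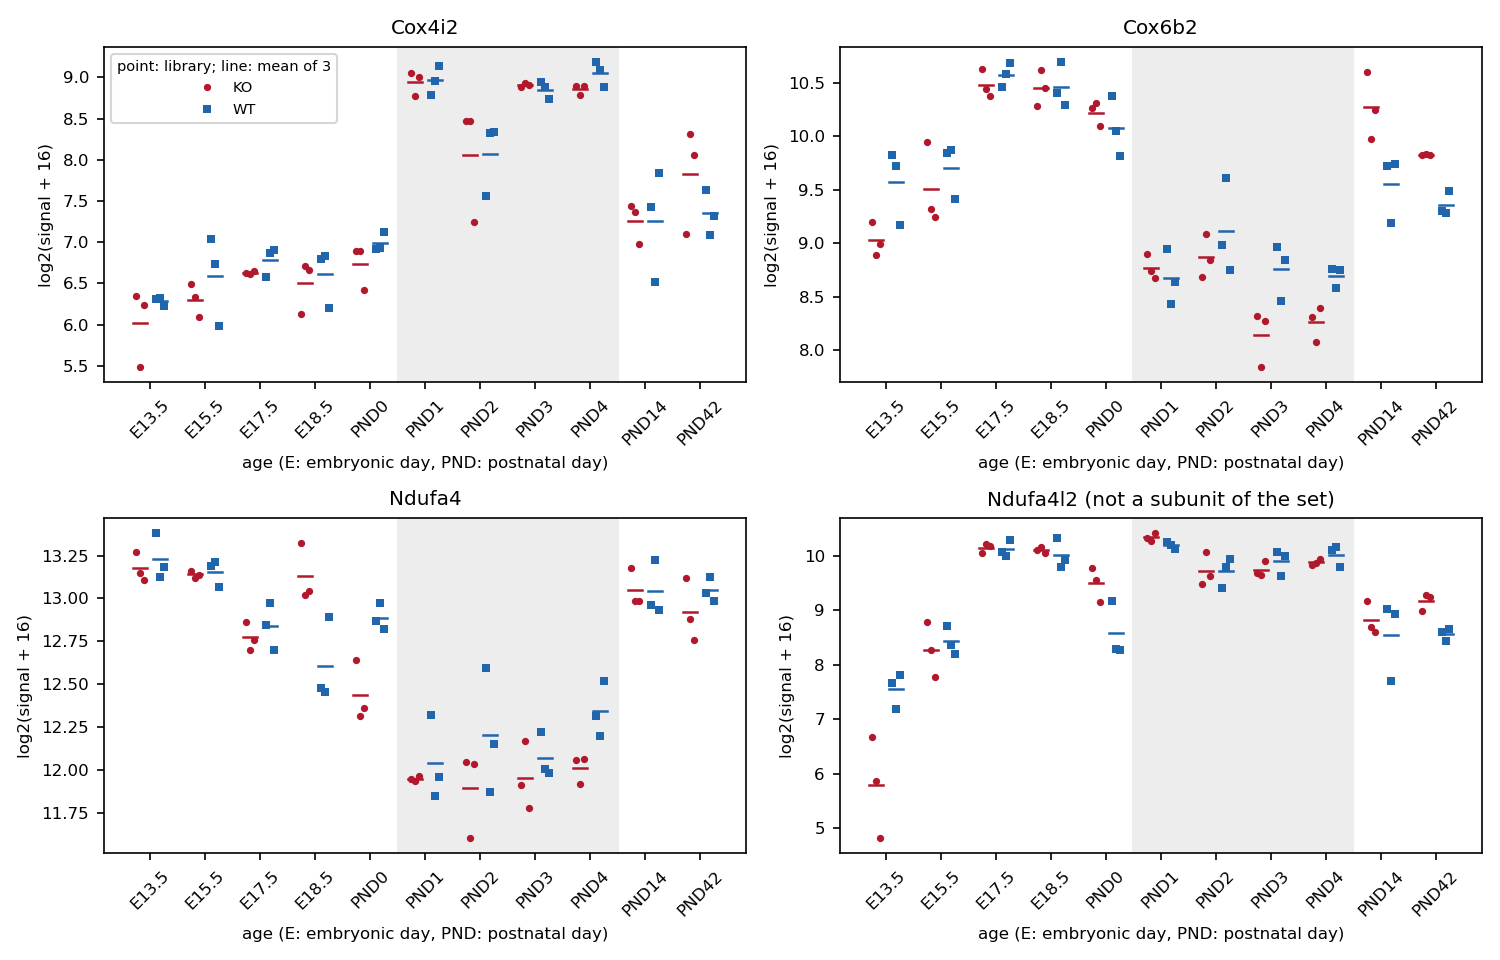
Levels of Cox4i2, Cox6b2, Ndufa4 and Ndufa4l2 in each library, log2(signal + 16), KO (circles) left of WT (squares) at each age, with a line at the mean of 3 and PND1 to PND4 shaded. Ndufa4l2 at E13.5 is lower in the 3 KO libraries (4.82 to 6.67) than in the 3 WT libraries (7.20 to 7.81).

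The muscle isoforms Cox6a2, Cox7a1 and Cox8b varied widely within some groups, where a single library stood apart, but not in all. At E15.5 the KO libraries lay under the WT libraries for each of the 3. The mean differences there were -0.84, -0.89 and -0.69, none of them called. At E18.5, Cox8b was at 10.81, 7.15 and 7.38 in KO libraries and 6.10, 6.25 and 9.56 in WT libraries. Cox6a2 was at 10.97, 7.54 and 8.58 in KO libraries and 6.98, 7.07 and 9.72 in WT libraries, with the same libraries at the top as for the heart markers. In the 22 groups, the library highest in Cox6a2 or Cox7a1 was also the highest in the heart list in 19, and for Cox8b in 18. For the other 60 subunits the number of such groups ranged from 5 to 19 with a median of 14, which reaches the level of the muscle isoforms. The brown fat list (7 measured markers) shared its highest library with the muscle isoforms in 13 to 18 groups and with the others in 2 to 19 (median 15), and the liver list in 5 to 8 and 3 to 10 (median 6). For the skeletal muscle list the numbers were 12 to 13 for the muscle isoforms and 3 to 16 (median 12) for the others.

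Averaged over ages, KO minus WT was -0.13 ± 0.21 for Cox6a2 (adjusted p = 0.777), -0.29 ± 0.20 for Cox7a1 (adjusted p = 0.424) and -0.27 ± 0.26 for Cox8b (adjusted p = 0.595), and none of the 3 was called between genotypes at any age. Single-age differences were wide, at -1.27, -1.99 and -2.28 at PND4 in the same order. The highest were 1.68 at PND14 for Cox6a2, and 1.08 for Cox7a1 and 1.14 for Cox8b at E18.5. With within-group SDs of 0.89 to 1.14, differences of this size can go uncalled. Cox8b and Cox7a1 rose from PND0 to PND14 in KO lungs by 3.06 ± 0.87 (adjusted p = 0.00455) and 2.42 ± 0.68 (adjusted p = 0.00414). In WT lungs the differences were 2.32 ± 0.87 (adjusted p = 0.0652) and 1.85 ± 0.68 (adjusted p = 0.0583). These were not called, but the WT libraries of PND14 lay above those of PND0 for both genes. In KO libraries Cox8b was at 12.01, 11.02 and 10.93 at PND14 and 9.40, 7.32 and 8.05 at PND0. Over the same libraries the heart markers averaged 11.03, 11.71 and 11.18 at PND14 and 10.17, 9.19 and 9.54 at PND0, and the part of heart muscle RNA in this rise was not tested.

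**Figure D5:**
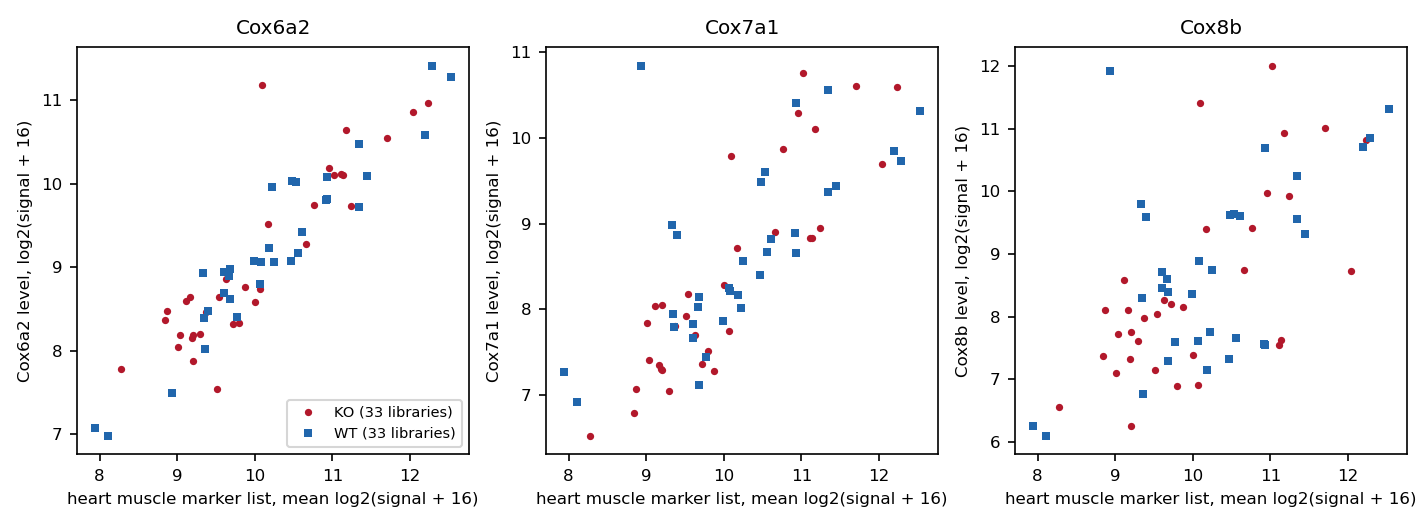
Level of Cox6a2, Cox7a1 and Cox8b against the mean level of the 12 heart muscle markers in each of 33 KO (circles) and 33 WT (squares) libraries, both axes in log2(signal + 16). The libraries share tissue, dissection and array, and those high in the heart list are high in the isoforms in both genotypes.

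Ndufa4 and its paralogue Ndufa4l2, which is known as a hypoxia-induced gene and was not a member by the naming rule, were compared by age. Ndufa4 was high at E13.5 (group means 13.18 in KO and 13.23 in WT lungs). At PND0 it was at 12.64, 12.31 and 12.36 in KO libraries, against 12.87, 12.97 and 12.82 in WT libraries. Ndufa4l2 was at 6.67, 5.87 and 4.82 in KO libraries and 7.67, 7.20 and 7.81 in WT libraries at E13.5 (-1.77 ± 0.27, adjusted p = 6.23e-05). At PND0 it was at 9.78, 9.56 and 9.15 in KO libraries and 9.17, 8.29 and 8.28 in WT libraries, higher by 0.92 ± 0.27 (adjusted p = 0.0194). Its rise from E13.5 to PND0 was 2.69 larger in KO lungs, and its KO effect depended on age (adjusted p = 0.000131).

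Genes of neighbouring pathways were listed too. Of all genes, 6.78% were higher and 4.5% lower in the average over ages. Of 18 measured ATP synthase genes, 0 were higher and 4 lower in KO lungs in the average over ages, with Atpif1, the inhibitor of the synthase, at -0.10 ± 0.02 (adjusted p = 0.00223) and Atp5h at -0.12 ± 0.03 (adjusted p = 0.00523). Of 7 genes of cytochrome c and other electron carriers 2 were lower, Cyct, the testis cytochrome c, by 0.74 ± 0.11 (adjusted p = 5.14e-06) and Gpd2, which passes electrons from glycerol phosphate to ubiquinone, by 0.31 ± 0.04 (adjusted p = 4.35e-08). Of 38 assembly factors 1 was higher, Acad9 (0.20 ± 0.04), and 4 were lower, with Bcs1l, which inserts the Rieske protein into complex III, at -0.15 ± 0.04 (adjusted p = 0.0103). At PND0 the 38 assembly factors counted 0 higher (5.85% of all genes) and 10 lower (8.62%), led by Bcs1l (-0.98 ± 0.13, adjusted p = 2.71e-07), Coa3 (-0.76 ± 0.10) and Sdhaf4 (-0.72 ± 0.11). At E18.5 they counted 8 higher (7.1% of all genes) and 0 lower (5.3%).

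Of 17 regulators of mitochondrial biogenesis, 2 were higher and 2 lower in the average: Gabpb1, the partner of Gabpa, at 0.16 ± 0.04 (adjusted p = 0.00324), Polg at 0.11 ± 0.04, Tfb1m, a mitochondrial ribosomal RNA methyltransferase, at -0.26 ± 0.04 (adjusted p = 9.69e-06) and Polrmt at -0.11 ± 0.03. Of 15 citrate cycle genes 1 was higher (Dlst, 0.13 ± 0.04) and 1 lower (Cs, -0.15 ± 0.05), and of 12 glycolysis genes 0 were called. The known Nrf2 targets differed far more: 9 of 11 were lower and 0 higher, with Gsta3 at -1.43 ± 0.11 (adjusted p = 7.83e-14) and Me1 at -0.61 ± 0.04 (adjusted p = 8.54e-15).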

How the data were processed

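Total RNA from 66 lung samples was labelled with biotin by one-cycle synthesis and hybridized to 1 mouse Affymetrix array a sample. The deposited values are signal intensities per probe set. The submitters' processing notes name GCOS as the software, and its version and settings are not given in the sources used here. As deposited, the intensities had a 2% trimmed mean of 500 on 42 arrays and of 171.7 to 307.1 on the 24 arrays of PND1 to PND4. The number of arrays limits the precision.

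Intensities were quantile normalized over the 66 arrays and set to log2(signal + 16). Control probe sets were then dropped, and limma 3.58.1 (R 4.3.3) fitted 22 group means to 45037 probe sets, with an intensity trend and Benjamini-Hochberg adjustment over all of them at 0.05. Of these, 34945 had 1 symbol, 932 several and 9160 none in the platform annotation. A gene is its brightest probe set, and shares of all genes are over 18193 genes. The 3 samples of a group are separate lungs or pools. Promoter windows came from RefSeq. The fit was tested on simulated data.

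The members, the gene lists and the named genes were chosen with earlier results of these data known. By rule, the text names the complex IV isoforms with Ndufa4 and Ndufa4l2, up to 3 of the largest called rises and falls in each comparison, the 5 smallest p-values of each test over ages, the median member of each complex and up to 3 pathway genes a list by p; other called genes were named after their values were seen. Equal replicate numbers did not pair KO and WT libraries: over 33 pairs their deviations correlated at a median r of 0.0026 (-0.184 to 0.2124, 1 pair over 0.1). Alternatives covered the scaling, pseudocount, dim probe sets, trend, array weights, second probe set, replicate block, groups in the fit, ages and each library left out, and, added after seeing the data, the heart and liver lists as covariates, the libraries high in heart markers and the average over PND1 to PND4.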

Additional observations from a re-analysis of the deposited data

Results flagged for a closer look

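The KO effect of 24 of the 63 subunits depended on age in limma's interaction test, a share of 38.1%, against 35.1% of all genes. The smallest adjusted p-values were 5.99e-06 for Sdhc, 0.000508 for Ndufb6, 0.00102 for Ndufb1, 0.00106 for Cox6b2 and 0.00137 for Ndufa2. For 14 subunits, and 7.1% of all genes, the KO minus WT difference was lower over PND1 to PND4 than over the other 7 ages, a split of the ages chosen after the values had been seen.

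The change from E13.5 to PND0 differed between KO and WT lungs by -0.80 for Ndufc1, -0.43 for Ndufa1, -0.36 for Uqcrb and 0.71 for Sdhc on the log2 scale. The change from PND0 to PND14 differed by 0.54 for Ndufs7 and by 0.54 for Ndufa1. The change from PND14 to PND42 differed by 1.58 for Ndufs5, where replicate 3 of WT PND42 stood at 8.49.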

How the results depend on the processing

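All values here are numbers of the 63 subunits called, unless a gene is named. Over all alternatives and comparisons, 605 counts stayed within 1.5 times the reported one and 167 did not, and of the values of single named genes 2109 kept direction and call, 440 kept direction but lost the call and 11 changed direction. Where no cause is given, it was not tested. 

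With signals as deposited, KO against WT gave 18 averaged over all ages, 41 over PND1 to PND4, 28 for PND1 to PND4 against the other ages, 0 at E17.5, 2 at E18.5, 4 at PND0 and 20 at PND3. The difference between genotypes in the change gave 0 for E13.5 to PND0, 1 for PND0 to PND14 and 0 for PND14 to PND42, and the WT change from PND1 to PND4 gave 2. With array medians subtracted, the average gave 2, PND1 to PND4 12, E17.5 0, PND0 3, PND2 0, PND3 1, PND4 0 and PND14 2. The differences in change gave 0, 1 and 0 in the same order, the WT change from PND1 to PND4 2 and the KO change from PND14 to PND42 23.

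With array weights, counts were 1 at E13.5, 2 at E17.5, 16 at E18.5, 3 at PND2, 4 at PND4 and 2 at PND14, and 11 and 13 for the difference in change from E13.5 to PND0 and from PND0 to PND14, 25 for the WT change from PND0 to PND14 and 12 for that from PND1 to PND4. With only the groups compared in the fit, which leaves fewer libraries for the spread, counts were 2 at E17.5, 2 at E18.5, 0 at PND2, 2 at PND3, 1 at PND4 and 0 at PND14. They were 2, 0 and 0 for the differences in change, and 0, 0 and 3 for the WT changes from PND0 to PND14, PND14 to PND42 and PND1 to PND4. Without the intensity trend they were 0 at E17.5, 3 at E18.5 and 0 at PND4, 2, 1 and 0 for the differences in change and 2 for the KO change from PND1 to PND4.

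Without dim probe sets, counts were 1 at E13.5, 10 at E18.5, and 11 and 5 for the first 2 differences in change. With a pseudocount of 1, E13.5 gave 1. Second probe sets gave 1 at E13.5, 2 at E17.5, 1 at PND2, 0 at PND4, 2 for the KO change from PND1 to PND4 and 7 for PND1 to PND4 against the other ages. The replicate block gave 2 at E13.5, 0 at E17.5 and 0 at PND4, and moved no other count by over 1.5 times; the samples share only a number.

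With the heart list as a covariate, counts were 1 at E13.5, 16 at PND0, 7 at PND3, 0 at PND4, 2 at PND14, 10 over PND1 to PND4 and 5 for those ages against the others. They were 1 and 3 for the difference in change from PND0 to PND14 and from PND14 to PND42, and 24, 32 and 13 for the WT changes from PND0 to PND14, PND14 to PND42 and PND1 to PND4. With the liver list they were 1 at E13.5, 0 at E17.5, 2 at PND3, 1 at PND4 and 2 for the difference in change from E13.5 to PND0. Without the 5 libraries over 12 in the heart list they were 1 at E13.5, 3 at E18.5, 2 at PND2, 1 at PND4, 10 over PND1 to PND4 and 5 against the other ages. Over ages, the average gave 14 without E17.5 and E18.5, 1 with only the other 7 ages and 20 with only PND1 to PND4, and dependence on age gave 14, 12 and 0.

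With each library left out, the average ran from 6 to 12, PND1 to PND4 from 14 to 26, its difference from the other ages from 11 to 19, dependence on age from 18 to 27 and age in WT from 52 to 57. Single ages ran from 0 to 2 (E13.5), 0 to 0 (E15.5), 0 to 1 (E17.5), 2 to 15 (E18.5), 5 to 12 (PND0), 0 to 0 (PND1), 1 to 9 (PND2), 0 to 3 (PND3), 0 to 1 (PND4), 0 to 2 (PND14) and 2 to 4 (PND42). The change from E13.5 to PND0 ran from 41 to 48 in KO lungs, 18 to 31 in WT lungs and 1 to 5 for the difference. From PND0 to PND14 it ran from 29 to 38 in KO lungs, 8 to 15 in WT lungs and 1 to 6 for the difference. From PND14 to PND42 it ran from 8 to 18 in KO lungs, 7 to 15 in WT lungs and 0 to 2 for the difference, and from PND1 to PND4 from 1 to 4 in KO lungs, 2 to 12 in WT lungs and 0 to 0 for the difference.

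Direction changed in the second probe set for Cox7c (-0.0601) and Sdhc (-0.081) from PND0 to PND14 in WT lungs, Ndufa10 (0.94) over that span in KO lungs, Ndufb8 at PND2 (0.31) and Sdhc at E18.5 (-0.35). Averaged over only the 7 other ages, KO minus WT was 0.0262 for Ndufa2, 0.0345 for Ndufa5 and 0.0083 for Ndufs7. With signals as deposited, Ndufa6 over PND1 to PND4 was at -0.0105, and the difference in change of Uqcrb from E13.5 to PND0 was 0.23, and 0.21 with array medians subtracted.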
